A study of Mus musculus with 8 samples.

Results

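The genes described here are 10 mouse targets and antagonists of the Wnt pathway, namely Axin2, Lgr4, Lgr6, Lef1, Tcf7, Nkd1, Wif1, Bambi, Apcdd1 and Sfrp1. They were chosen by name, with earlier results of these data known, so their share of calls is a description. All 10 were found among the 55401 genes of the count table and passed the filter on low counts. Gene expression was measured by RNA sequencing in 8 mouse libraries labelled as airway cells, 4 labelled mutant and 4 labelled control, taken 10 days after tamoxifen. Mutant animals had the genotype Scgb1a1cre; Cdh1F/F, with both copies of Cdh1 floxed, and controls had the genotype Scgb1a1cre; Cdh1F/+, with 1 floxed copy. Both groups thus carried the Cre recombinase, received tamoxifen and held at least 1 floxed copy, so the controls are not wild type. The Scgb1a1 promoter is used to drive Cre in club cells, the secretory cells of the small airways. Which cells lost Cdh1 is not shown by these data. No age is given, and no label says whether a library holds cells sorted as positive or negative for GFP.

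Wnt ligands are secreted, lipid-modified proteins that bind frizzled receptors with an Lrp co-receptor. Binding stops a cytoplasmic complex, of which the Axin proteins are scaffolds, from marking beta-catenin for destruction, and beta-catenin then acts in the nucleus with proteins of the Tcf and Lef family. Several target genes feed back on the signal, among them Axin2 and Nkd1, and secreted antagonists such as Wif1 and Sfrp1 bind Wnt ligands outside the cell. Beta-catenin also ties E-cadherin, the product of Cdh1, to the actin cytoskeleton at adherens junctions. In adult lung, Wnt signals are known from the mesenchyme and the epithelium, and Lef1 and Tcf7 are also abundant in T cells.

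Total counts per library ran from 16981201 to 21673654 in mutant libraries and from 15111663 to 20454930 in controls, and values are given as CPM, counts scaled to library depth with TMM factors. Summed over the whole gene, Cdh1 stood at 406.4, 409.8, 401.5 and 395.9 CPM in mutant libraries 1 to 4, against 321.8, 428.4, 388.4 and 395.4 CPM in controls 1 to 4. Its log2 fold change was 0.07 ± 0.09 (SE), and edgeR's quasi-likelihood test gave 0.648 as the adjusted p. Such a sum cannot show the loss of floxed exons, so Cdh1 checks no label and each direction rests on the labels. The libraries held more than airway epithelium: Pecam1 of endothelial cells averaged 135.3 RPKM (CPM per kilobase of exon) in mutant libraries and 188.4 RPKM in controls, and the epithelial gene Epcam 46.8 and 30.6 RPKM. Alveolar cells were also present: 7 alveolar type II markers summed to 24352 to 30554 CPM in mutant libraries and 22210 to 31826 CPM in controls, with 0 called by edgeR (1 higher at an unadjusted p under 0.05, 0 by DESeq2). The sums of 7 alveolar type I markers ran from 5132 to 5191 CPM in mutant libraries and from 5126 to 6070 CPM in controls, and 1 of them, Rtkn2, fell 1.29-fold. Of these 7 markers 6 had negative log2 fold changes. At an unadjusted p under 0.05 edgeR had 1 higher and 3 lower, and DESeq2 called 2 lower, Hopx and Rtkn2. Controls varied more among themselves than mutant libraries did. Chi-square per gene between a pair of mutant libraries ran from 5.63 to 11.5, while it was 4.55 between controls 2 and 3 and 18.1 to 41.3 between the other control pairs. Of 16964 genes tested, 924 were higher (5.45%) and 401 lower (2.36%) in mutant libraries at an adjusted p under 0.05, and 7.81% were called in either direction.

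Of the 10 Wnt genes, 1 rose and 3 fell in mutant libraries, beside 5.45% and 2.36% of all genes tested. Sfrp1 rose 2.18-fold, and Wif1, Bambi and Apcdd1 fell 1.94-fold, 1.497-fold and 1.34-fold. The remaining 6, Axin2, Nkd1, Lgr4, Lgr6, Lef1 and Tcf7, did not pass the test. The median log2 fold change of the 10 was -0.27, against -0.01 over all genes tested. For 5 of the 10 the groups did not overlap, which held for 16.8% of all genes tested. DESeq2 called the same 4 genes, in the same directions.

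**Figure D1:**
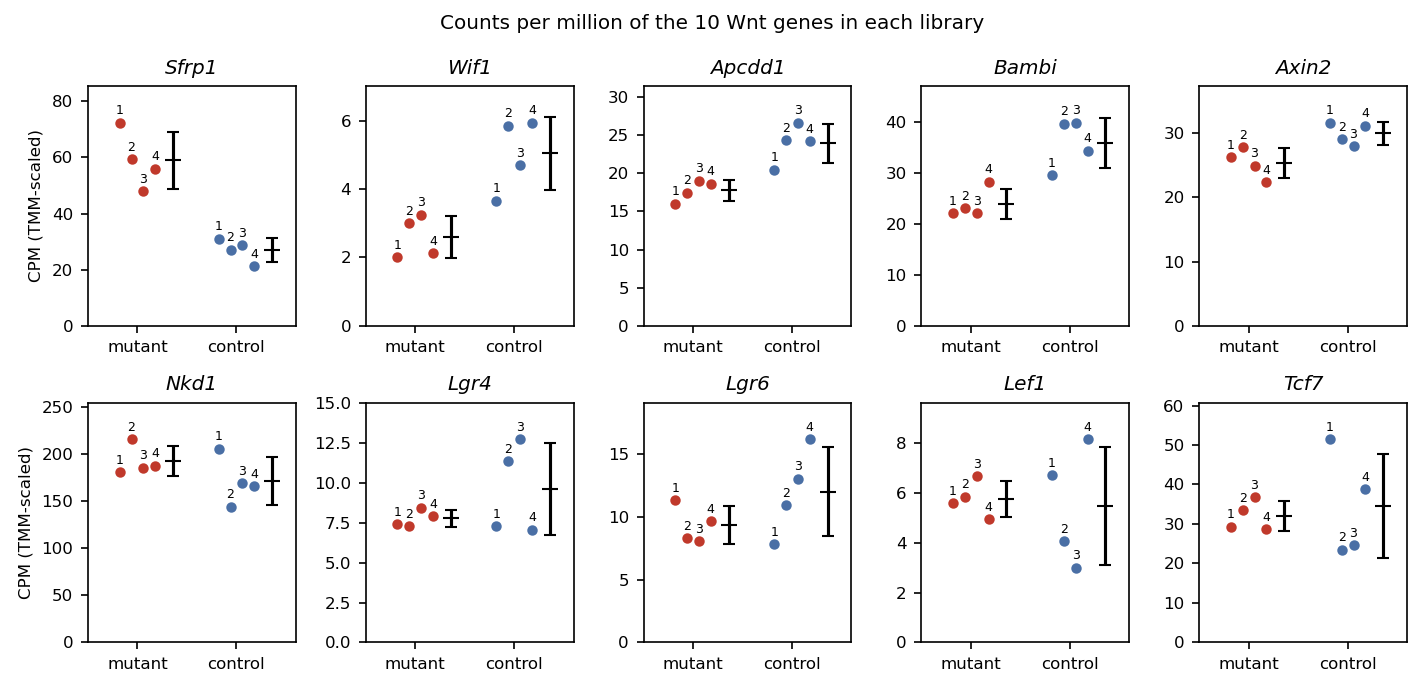
Each panel shows 1 gene, with CPM on a linear axis from 0, 4 mutant libraries in red on the left and 4 controls in blue on the right, numbered by library; black marks give the mean and SD. Sfrp1 lies higher and Wif1, Apcdd1, Bambi and Axin2 lie lower in every mutant library than in any control, while the controls of Lgr4, Lef1 and Tcf7 spread on both sides of the mutant libraries.

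The secreted antagonists moved in opposite directions. Sfrp1 (ENSMUSG00000031548.7, GRCm38 chromosome 8, 23411502 to 23449632, plus strand) encodes a secreted protein with a frizzled-like domain that binds Wnt ligands. It stood at 72.4, 59.4, 48.0 and 56.0 CPM in mutant libraries 1 to 4, against 31.1, 27.2, 28.9 and 21.2 CPM in controls 1 to 4. Every mutant library lay above every control, and the lowest mutant library, number 3, was still above the highest control, number 1. Sfrp1 averaged 59.0 ± 10.2 CPM in mutant libraries and 27.1 ± 4.23 CPM in controls (SD, n = 4 each). As a log2 fold change this was 1.12 ± 0.15 (SE), the 95% interval of the ratio ran from 1.73 to 2.73, and the adjusted p was 0.00179 by edgeR's quasi-likelihood test. With any 1 library left out the adjusted p lay between 0.0020 and 0.0085, and the log2 fold change between 1.01 and 1.21.

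In the same libraries the levels of other cell types differed, and in bulk RNA fewer cells of a type and less RNA per cell cannot be told apart. Of 8 fibroblast markers 2 rose, Mfap4 1.40-fold and Col3a1 1.63-fold, and the summed level of the list ran from 4284 to 4926 CPM in mutant libraries and from 2970 to 4320 CPM in controls. Fibroblasts of the lung are known to express Sfrp1. Pdgfra, a receptor that marks lung fibroblasts, stood at 369.3, 402.9, 371.0 and 285.1 CPM in mutant libraries, against 339.9, 432.4, 450.3 and 363.5 CPM in controls, and edgeR's quasi-likelihood test gave 0.491 as the adjusted p. Of 8 epithelial markers 7 rose, all but Cdh1, with summed levels of 1709 to 2027 CPM in mutant libraries and 904 to 1239 CPM in controls. Of all genes tested 5.45% rose. Macrophage markers rose in 4 of 7, with sums of 973 to 1252 CPM in mutant libraries and 633 to 743 CPM in controls, and ciliated cell markers in 5 of 7, with sums of 784 to 1025 CPM in mutant libraries and 562 to 750 CPM in controls. Cd14, one of the macrophage markers that rose, and Fcamr were the 2 genes nearest in pattern to Sfrp1, at distances of 0.145 and 0.146. They were picked for likeness over these same 8 libraries, so they cannot show which cells express Sfrp1. None of the markers in these lists was at 0, and the part of the cell makeup in the result for Sfrp1 was not tested.

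Wif1 (ENSMUSG00000020218.11, chromosome 10, 121033960 to 121100650, plus strand) encodes a secreted protein whose WIF domain binds Wnt ligands. Its level was 2.01, 2.999, 3.25 and 2.13 CPM in mutant libraries 1 to 4, against 3.66, 5.85, 4.70 and 5.94 CPM in controls 1 to 4. The groups did not overlap, although mutant library 3 and control 1 lay close to each other. Wif1 rested on 35 to 58 counts per mutant library and 76 to 116 per control, the fewest of the 10 genes in the mutant group, and counting error is therefore larger than for the others. The log2 fold change was -0.95 ± 0.23 (SE), with a 95% interval of the ratio from 0.364 to 0.733, and edgeR's quasi-likelihood test gave 0.0327 as the adjusted p. The call was lost without control 2 (adjusted p = 0.0863), control 3 (0.0592) or control 4 (0.0519), and without mutant library 1 (0.100), 2 (0.0640) or 4 (0.0919), with log2 fold changes from -1.08 to -0.85 over the 8 fits that left out 1 library.

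Apcdd1 (ENSMUSG00000071847.13, chromosome 18, 62922231 to 62961179, plus strand) encodes a membrane glycoprotein that inhibits Wnt signalling in the cell that makes it. It stood at 16.0, 17.4, 19.0 and 18.6 CPM in mutant libraries 1 to 4, against 20.5, 24.3, 26.6 and 24.2 CPM in controls 1 to 4. The groups did not overlap, and control 1 was the control closest to the mutant libraries. On the log2 scale the change was -0.43 ± 0.10 (SE), and edgeR's quasi-likelihood test gave 0.0329 as the adjusted p. Without control 2 or 3 the adjusted p was 0.0810 or 0.0866, and without mutant library 1, 2, 3 or 4 it was 0.105, 0.0945, 0.0545 or 0.0656, so the call was lost in 6 of the 8 fits that left out 1 library.

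Bambi (ENSMUSG00000024232.2, chromosome 18, 3507923 to 3516404, plus strand) encodes a membrane protein that resembles TGF-beta family receptors without a kinase domain, and it is known as a target of beta-catenin. Its level was 22.2, 23.1, 22.2 and 28.3 CPM in mutant libraries 1 to 4, against 29.6, 39.7, 39.9 and 34.4 CPM in controls 1 to 4. Mutant libraries 1 to 3 lay close together, and mutant library 4 came close to control 1 without passing it. As a log2 fold change this was -0.58 ± 0.12 (SE), the 95% interval of the ratio ran from 0.555 to 0.805 and the adjusted p was 0.0180 by edgeR's quasi-likelihood test. The adjusted p was 0.0521 without control 2, and 0.0674, 0.0625 and 0.0556 without mutant library 1, 2 or 3.

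Endothelial markers moved in the same direction as these 3 genes. All 8 markers of the list had negative log2 fold changes and 4 of them fell, Tek, Ramp2, Cdh5 and Pecam1, with summed levels of 3453 to 3874 CPM in mutant libraries and 4269 to 5452 CPM in controls. Pecam1 stood at 847.9, 874.9, 887.2 and 759.6 CPM in mutant libraries, against 1005, 1287, 1370 and 1030 CPM in controls. Its call was lost without control 2 (adjusted p = 0.0988) or 3 (0.0834), without mutant library 1, 2, 3 or 4 (0.101, 0.0857, 0.0717 and 0.101), and without controls 2 and 3 together (0.122). Club cell markers fell in 5 of 7, with sums of 8534 to 10749 CPM in mutant libraries and 25145 to 27596 CPM in controls, and smooth muscle markers fell in 2 of 7, Des and Cnn1. Of all genes tested 2.36% fell. No marker of these lists was at 0, and their part in the results for Wif1, Apcdd1 and Bambi was not tested.

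**Figure D2:**
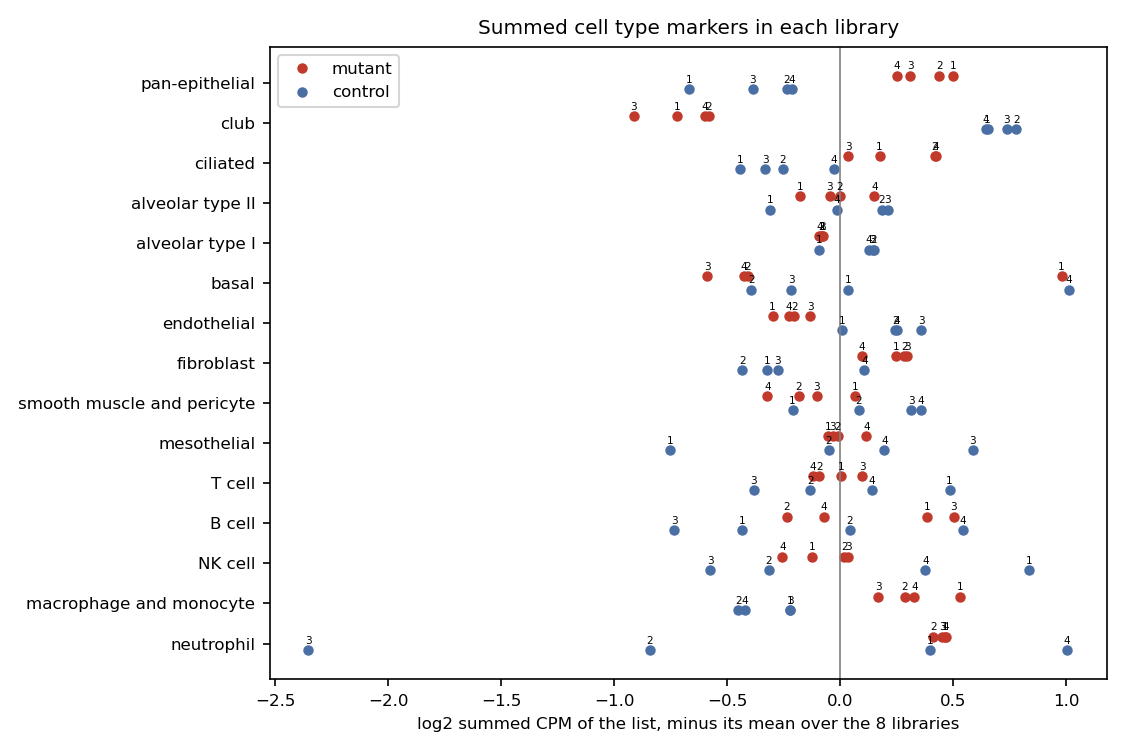
Points give the log2 summed CPM of each marker list per library, minus the mean over the 8 libraries, with mutant libraries in red above controls in blue and library numbers beside the points. Epithelial, ciliated and macrophage sums were higher and club and endothelial sums lower in every mutant library than in any control. The controls spread most in the neutrophil list.

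Axin2 and Nkd1 are feedback inhibitors that beta-catenin switches on, and Axin2 is widely used as a readout of the pathway. Axin2 (ENSMUSG00000000142.15, chromosome 11, 108920349 to 108950783, plus strand) stood at 26.3, 27.9, 24.9 and 22.4 CPM in mutant libraries 1 to 4, against 31.6, 29.1, 28.0 and 31.2 CPM in controls 1 to 4. Each mutant library lay below each control, narrowly so for mutant library 2, at 27.86 CPM, and control 3, at 27.98 CPM. The log2 fold change was -0.24 ± 0.09 (SE), with a 95% interval of the ratio from 0.740 to 0.967. Its unadjusted p was 0.0193 and its adjusted p was 0.118 by edgeR's quasi-likelihood test, so Axin2 was not called. Across the 17 alternative fits the log2 fold change stayed between -0.31 and -0.16 and the adjusted p between 0.0569 and 0.283.

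Nkd1 (ENSMUSG00000031661.12, chromosome 8, 88521354 to 88594884, plus strand) encodes a protein that binds Dishevelled and dampens the signal. It stood at 180.5, 215.5, 185.2 and 187.2 CPM in mutant libraries 1 to 4, against 205.4, 143.9, 169.1 and 165.8 CPM in controls 1 to 4. Control 1 lay among the mutant libraries and the other controls below them. On the log2 scale the change was 0.17 ± 0.11 (SE), and edgeR's quasi-likelihood test gave 0.371 as the adjusted p, and the 95% interval of the ratio, 0.947 to 1.33, held no change as well as an increase. Without controls 1 and 4 it was called, with a log2 fold change of 0.29 (adjusted p = 0.0232). That fit kept only controls 2 and 3, the control pair most alike (chi-square per gene 4.55). It called 3750 genes higher and 3338 lower of 17418 tested, so a call there sets no gene apart.

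Windows around the start sites of Wif1, which fell, and of Axin2, the common readout, are shown for the region on which Tcf and Lef proteins could act near these genes. Each has 250 bases before and 50 bases after the start site in RefSeq on GRCm38.p6, at chr10:121033754-121034053 and chr11:108920099-108920398, both on the plus strand. RefSeq windows were matched for 7 of the 10 genes, and for Sfrp1, Bambi and Apcdd1 none is shown.
Wif1: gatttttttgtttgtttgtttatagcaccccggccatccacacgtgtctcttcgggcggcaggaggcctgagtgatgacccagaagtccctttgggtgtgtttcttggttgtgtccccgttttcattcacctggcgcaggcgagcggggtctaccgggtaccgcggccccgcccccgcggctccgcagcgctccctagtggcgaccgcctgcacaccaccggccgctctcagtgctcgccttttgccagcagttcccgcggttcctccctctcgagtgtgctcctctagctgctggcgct
Axin2: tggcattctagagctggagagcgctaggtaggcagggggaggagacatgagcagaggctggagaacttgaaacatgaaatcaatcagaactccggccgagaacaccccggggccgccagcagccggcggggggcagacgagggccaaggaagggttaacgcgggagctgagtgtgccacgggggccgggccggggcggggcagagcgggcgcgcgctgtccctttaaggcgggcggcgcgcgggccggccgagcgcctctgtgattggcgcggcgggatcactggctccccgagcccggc
The letters CTTTGAT, a core of the Tcf and Lef motif, and their reverse complement ATCAAAG would stand in capitals, and neither window holds them. They were also not in the other 9 windows of these 7 genes, and 3.73% of all 32851 RefSeq windows of this length hold them. GC made up 63.0% of the Wif1 window, with 25 CG steps, and 70.0% of the Axin2 window, with 31.

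Lgr4 and Lgr6 encode membrane receptors for R-spondins, secreted proteins that raise the response to Wnt. Lgr4 (ENSMUSG00000050199.13, chromosome 2, 109917647 to 110014257, plus strand) stood at 7.43, 7.31, 8.46 and 7.92 CPM in mutant libraries 1 to 4, against 7.27, 11.4, 12.8 and 7.07 CPM in controls 1 to 4. Controls 1 and 4 lay below all mutant libraries and controls 2 and 3 above them. As a log2 fold change this was -0.30 ± 0.20 (SE), and edgeR's quasi-likelihood test gave 0.377 as the adjusted p. It was 0.12 without controls 2 and 3 (adjusted p = 0.707) and -0.64 without controls 1 and 4 (adjusted p = 0.00233). The sign thus rested on which controls were kept, as follows from their positions. The fit without controls 1 and 4 called 3750 genes higher and 3338 lower of 17418 tested.

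Lgr6 (ENSMUSG00000042793.13, chromosome 1, 134983301 to 135105276, minus strand) stood at 11.3, 8.29, 8.07 and 9.65 CPM in mutant libraries 1 to 4, against 7.80, 10.95, 13.1 and 16.2 CPM in controls 1 to 4. Control 1 was the lowest and control 4 the highest of all 8 libraries. With a log2 fold change of -0.36 ± 0.21 (SE), and edgeR's quasi-likelihood test gave 0.320 as the adjusted p, Lgr6 was not called, and it was not called in any of the 17 alternative fits.

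Lef1 and Tcf7 encode the DNA-binding partners through which beta-catenin acts on its targets. Lef1 (ENSMUSG00000027985.14, chromosome 3, 131110471 to 131224356, plus strand) stood at 5.58, 5.83, 6.67 and 4.94 CPM in mutant libraries 1 to 4, against 6.70, 4.06, 2.998 and 8.15 CPM in controls 1 to 4. Controls 2 and 3 lay below all mutant libraries, and controls 1 and 4 above them. The log2 fold change was 0.06 ± 0.28 (SE), and the adjusted p was 0.917 by edgeR's quasi-likelihood test. Tcf7 (ENSMUSG00000000782.16, chromosome 11, 52252371 to 52283331, minus strand) stood at 29.4, 33.4, 36.8 and 28.6 CPM in mutant libraries 1 to 4, against 51.5, 23.5, 24.6 and 38.7 CPM in controls 1 to 4. The controls again lay on both sides of the mutant libraries, numbers 1 and 4 above and numbers 2 and 3 below. Its log2 fold change was -0.12 ± 0.23 (SE), and the adjusted p was 0.791 by edgeR's quasi-likelihood test.

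Both genes turned direction with the controls kept, which follows from the positions of the controls given above and adds nothing to them. Without controls 2 and 3 the log2 fold change was -0.37 for Lef1 and -0.49 for Tcf7 (adjusted p = 0.289 and 0.0908 by edgeR's quasi-likelihood test). Without controls 1 and 4 it was 0.71 for Lef1 and 0.41 for Tcf7 (adjusted p = 0.0170 and 0.0121), in a fit that called 3750 genes higher and 3338 lower of 17418 tested. The summed level of 8 T cell markers was 57.2, 53.6, 61.2 and 52.6 CPM in mutant libraries 1 to 4, against 79.9, 52.1, 43.8 and 63.0 CPM in controls 1 to 4. Controls 1 and 4 were thus the highest in T cell markers, as in Lef1 and Tcf7, and control 3 was the lowest. This split of the controls was not particular to T cell markers. Summed NK cell markers stood at 60.3, 27.1, 22.7 and 43.9 CPM in controls 1 to 4, and neutrophil markers at 90.8, 38.4, 13.5 and 138.0 CPM. B cell sums, at 43.0, 59.9, 35.0 and 84.7 CPM, did not follow it. By edgeR 0 of the 8 T cell markers was called, beside 7.81% of all genes tested. At an unadjusted p under 0.05 edgeR had 0, and DESeq2 called 0. Cd3e, a subunit of the T cell receptor complex, was present at 3.67 to 5.35 CPM in mutant libraries and 2.17 to 5.11 CPM in controls, so T cell RNA was present although the series text describes a depletion of immune cells. Its part in the values of Lef1 and Tcf7 was not tested.

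**Figure D3:**
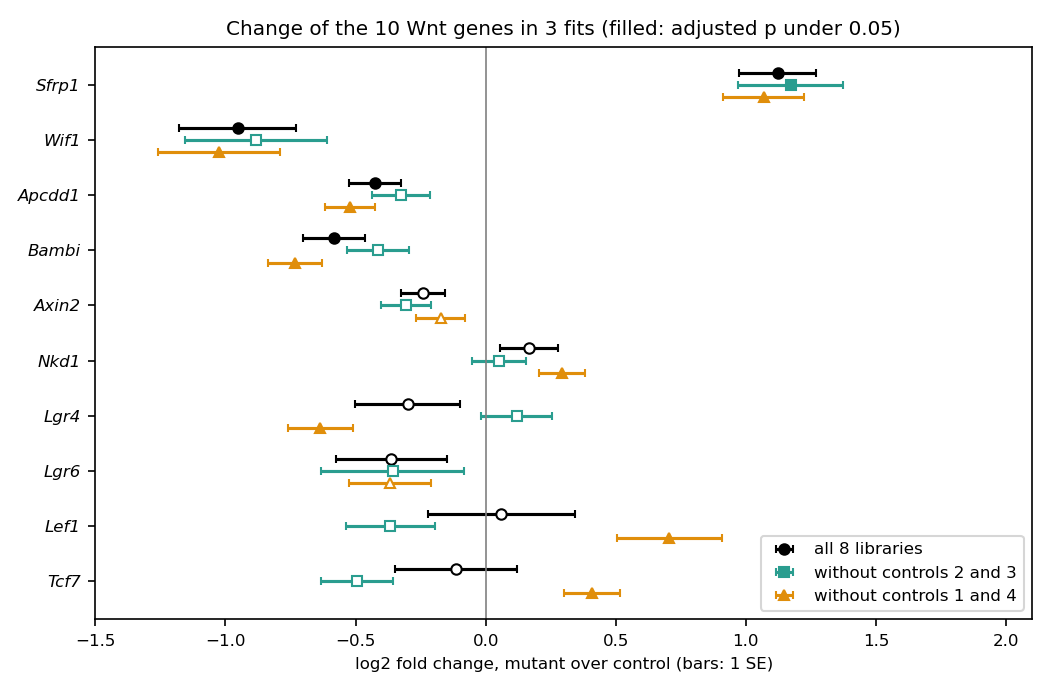
The log2 fold change of each gene, mutant over control, is plotted with 1 SE for all 8 libraries (circles), without controls 2 and 3 (squares) and without controls 1 and 4 (triangles); filled symbols have an adjusted p under 0.05. Sfrp1 is filled in all 3 fits, Wif1, Apcdd1 and Bambi are filled in 2 of them, and Lgr4, Lef1 and Tcf7 change sides.

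Lef1, Tcf7, Lgr4 and Lgr6 were the 4 of the 10 genes with the widest relative spread among controls. There the SD was 43.2% of the mean for Lef1, 38.3% for Tcf7, 29.9% for Lgr4 and 29.4% for Lgr6, against 12.4%, 11.9%, 6.77% and 16.2% of the mean in mutant libraries. For Axin2 it was 9.10% in mutant libraries and 5.78% in controls, and for Apcdd1 it was 7.66% and 10.7%.

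Levels can be compared between genes on the RPKM scale. In mutant libraries Nkd1 was the most abundant of the 10 at 42.1 ± 3.47 RPKM (SD, n = 4), followed by Sfrp1 at 13.5 ± 2.32 and Tcf7 at 10.6 ± 1.26 RPKM. Bambi and Axin2 stood at 4.72 ± 0.581 and 4.61 ± 0.420 RPKM, Apcdd1, Lgr6 and Lgr4 between 1.32 and 1.38 RPKM, Wif1 at 1.07 ± 0.255 RPKM and Lef1 at 0.655 ± 0.081 RPKM. Neighbours in this order overlapped between libraries, except that Nkd1 lay above Sfrp1, Tcf7 above Bambi, Axin2 above Apcdd1 and Wif1 above Lef1. In controls Nkd1 was again highest, at 37.5 ± 5.59 RPKM, and Lef1 lowest, at 0.623 ± 0.269 RPKM (SD, n = 4). There Tcf7, Bambi and Sfrp1 followed Nkd1 at 11.5 ± 4.38, 7.07 ± 0.966 and 6.20 ± 0.966 RPKM, and Wif1, at 2.08 ± 0.445 RPKM, stood before Apcdd1, Lgr6 and Lgr4. By its mean Sfrp1 held rank 2 of 10 in mutant libraries and rank 4 in controls, and Wif1 held ranks 9 and 6. Among controls Tcf7, Bambi and Sfrp1 each overlapped the next gene in this order, as did Wif1, Apcdd1 and Lgr6. With such overlaps in both groups these ranks are not firm. Lef1 shares 1208 exonic bases with the antisense gene Gm43352, 13.7% of its length, and Axin2 shares 209 bases, 3.80%, with Gm11670. Reads over such shared bases were not counted, and the antisense genes had 18 and 11 counts in all 8 libraries together.

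For each gene, the protein-coding genes with the most similar pattern over the 8 libraries were taken by the root mean square distance between log2 CPM values centred on each gene's own mean, among 13422 genes with an average log2 CPM of at least 1. Slamf6 and Bcl11b lay closest to Lef1, at distances of 0.074 and 0.109, and Dock2 and Nrros closest to Tcf7, at 0.091 and 0.096. Sfrp1 was nearest to Cd14 and Fcamr, at 0.145 and 0.146, and Wif1 had the most distant neighbours, Abcc3 and Pamr1, at 0.216 and 0.229. Bambi was nearest to Abcb1a and Tspan7, at 0.071 and 0.077, Apcdd1 to Rab7b and Ankrd44, at 0.056 and 0.057, and Axin2 to Gnao1 and Msh3, at 0.065 and 0.068. Lgr4 lay closest to Kdsr and Spryd7, at 0.059 and 0.065, Lgr6 to Lmod1 and Crym, at 0.115 and 0.117, and Nkd1 to Pak4 and Gm35339, at 0.060 and 0.072. All distances are in log2 units over 8 libraries and are given as a description.

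The rest of the pathway was covered by 96 further genes, of which 75 passed the filter on low counts. Of these 3 rose, Wnt7b, Porcn and Cd44, and 0 fell by edgeR, beside 5.45% and 2.36% of all genes tested. At an unadjusted p under 0.05 edgeR had 16 higher and 6 lower. The share of all genes at that level was not taken, so such counts, here and in the lists below, have no background beside them. DESeq2 called 5 higher and 1 lower of these 75. Its fit called 1304 higher and 886 lower of 32727 genes. That fit did not use the filter on low counts, so its share of calls cannot be set beside that of the 75. The median log2 fold change of the 75 was 0.08. Of the 21 genes with too few counts to be tested, Cer1, Dkk4 and Fgf20 had none in any library, and 3 counts, the limit that a count of 0 allows, come to 0.136 to 0.207 CPM.

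Among the ligands 1 of 12 tested genes rose by edgeR, beside 5.45% of all genes tested. DESeq2 also called 1 lower, Wnt2b, at 5.73 ± 1.37 CPM in mutant libraries and 9.94 ± 3.59 CPM in controls (SD, n = 4 each). Wnt7b, a ligand made by lung epithelium, stood at 22.5, 20.3, 17.6 and 21.6 CPM in mutant libraries 1 to 4, against 5.93, 8.82, 8.23 and 9.94 CPM in controls 1 to 4. Every mutant library lay above every control. On the log2 scale the change was 1.32 ± 0.16 (SE), a 2.50-fold increase, and edgeR's quasi-likelihood test gave 0.0011 as the adjusted p, and no library left out ended the call (0.00074 to 0.0059). The 2 most abundant ligands per length were Wnt3a, at 7.56 RPKM in mutant libraries and 8.34 RPKM in controls, and Wnt2, at 5.74 and 5.57 RPKM, and neither was called. Epcam was 1.53-fold higher and summed club cell markers were lower in the same libraries, and the part of the cell makeup in the result for Wnt7b was not tested.

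Of 3 genes of Wnt secretion and modification 1 rose, beside 5.45% of all genes tested. Porcn, the enzyme that attaches the lipid to Wnt ligands, stood at 48.7, 56.9, 42.7 and 55.2 CPM in mutant libraries 1 to 4, against 35.8, 42.5, 36.6 and 38.1 CPM in controls 1 to 4. The groups did not overlap, but mutant library 3 was level with control 2. Its log2 fold change was 0.41 ± 0.10 (SE), and edgeR's quasi-likelihood test gave 0.0379 as the adjusted p. The call was lost without control 3 (0.0926) or 4 (0.0507) and without mutant library 1 (0.0863), 2 (0.108) or 4 (0.102). Wls, which carries Wnt ligands to the cell surface, stood at 21.5 RPKM in mutant libraries and 21.9 RPKM in controls, and the Wnt deacylase Notum at 4.33 ± 0.839 CPM in mutant libraries and 5.74 ± 0.998 CPM in controls (SD, n = 4 each), neither called.

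By edgeR 0 of 14 receptors and co-receptors and 0 of 6 genes of the R-spondin axis were called. Of 12 cytoplasmic genes and 11 nuclear partners 0 were called either. Of all genes tested 7.81% were called in either direction, and each list is too short to tell 0 from that share. At an unadjusted p under 0.05 these lists had 1 higher and 2 lower, 1 and 1, 1 and 0, and 3 and 1, and DESeq2 called 0 in each. Fzd4, the most abundant receptor at 33.0 RPKM in mutant libraries and 43.2 RPKM in controls, stood at 217.8, 225.0, 221.5 and 224.0 CPM in mutant libraries 1 to 4, against 241.7, 333.6, 351.6 and 233.7 CPM in controls 1 to 4, and edgeR's quasi-likelihood test gave 0.110 as the adjusted p. Every control of Fzd4 lay above every mutant library, unlike those of Lgr4, though numbers 2 and 3 were the highest for both genes. Ryk, an atypical receptor, followed at 23.9 RPKM in mutant libraries and 27.4 RPKM in controls. Rnf43, a ligase that removes frizzled receptors from the cell surface, stood at 20.7 ± 1.35 CPM in mutant libraries and 24.6 ± 1.11 CPM in controls (SD, n = 4 each), without overlap between groups, and edgeR's quasi-likelihood test gave 0.0849 as the adjusted p. Rspo1 had 7.24 RPKM in mutant libraries and 8.37 RPKM in controls.

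Ctnnb1, the gene of beta-catenin, was the most abundant cytoplasmic gene, at 938.4 ± 23.7 CPM in mutant libraries and 923.5 ± 69.4 CPM in controls (SD, n = 4 each), and its log2 fold change was 0.02 ± 0.08 (SE), and edgeR's quasi-likelihood test gave 0.882 as the adjusted p. Csnk1a1, a kinase of the destruction complex, stood at 24.4 RPKM in both groups. Among the nuclear partners Pygo2 and Bcl9l were the most abundant, at 21.5 and 15.7 RPKM in mutant libraries and 20.2 and 12.1 RPKM in controls. Bcl9l stood at 127.0, 133.0, 119.4 and 123.5 CPM in mutant libraries 1 to 4, against 134.2, 60.4, 55.2 and 138.3 CPM in controls 1 to 4, so controls 2 and 3 lay apart from the other 6 libraries.

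Of 7 other targets tested 1 rose by edgeR, beside 5.45% of all genes tested, and DESeq2 called 2 higher, Cd44 and Sox9. Cd44, a hyaluronan receptor known as a target in gut, stood at 165.9, 161.1, 169.1 and 158.4 CPM in mutant libraries 1 to 4, against 149.0, 111.1, 113.5 and 127.7 CPM in controls 1 to 4. Its log2 fold change was 0.38 ± 0.10 (SE), and edgeR's quasi-likelihood test gave 0.0404 as the adjusted p. The call was lost without control 2 (0.103) or 3 (0.0994) and without mutant library 1, 2, 3 or 4 (0.120, 0.101, 0.108 and 0.0886). Cd44 is also abundant in macrophages, of which 4 of 7 markers rose, as given beside Sfrp1; their part in the result was not tested. Ccnd1, the cyclin D1 gene and the most abundant of these targets, stood at 46.4 RPKM in mutant libraries and 46.2 RPKM in controls.

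Among 10 other tested antagonists 0 were called by edgeR, beside 7.81% of all genes tested. At an unadjusted p under 0.05 edgeR had 3 higher and 0 lower, and DESeq2 called Dkkl1 higher. Igfbp4 and Dkk3 were the most abundant of them, at 63.0 and 31.4 RPKM in mutant libraries and 54.1 and 38.4 RPKM in controls. Dkkl1 stood at 2.19, 2.13, 1.34 and 1.31 CPM in mutant libraries 1 to 4, against 0.385, 1.17, 0.823 and 0.820 CPM in controls 1 to 4, and its adjusted p was 0.0685 by edgeR's quasi-likelihood test.

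**Figure D4:**
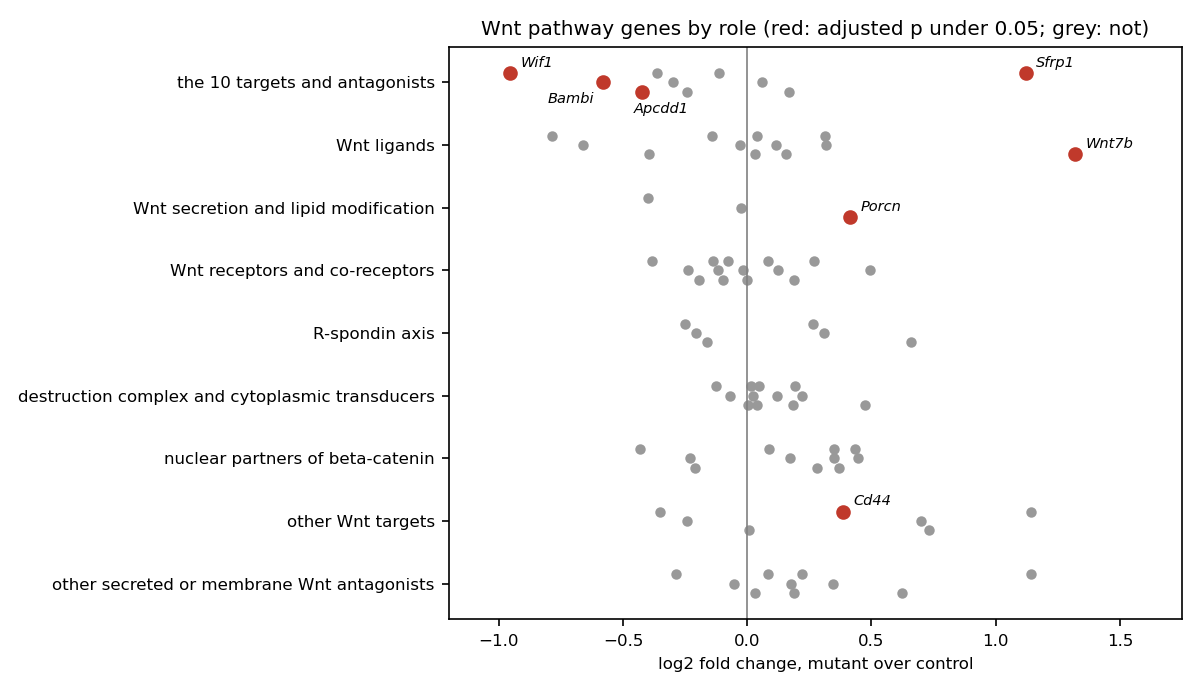
Every tested gene is a point at its log2 fold change, mutant over control, in rows by role, with the 10 targets and antagonists at the top; red points have an adjusted p under 0.05 and are named. Of the 75 other pathway genes Wnt7b, Porcn and Cd44 are red, all on the higher side, and Sfrp1 and Wnt7b lie farthest to the right among the named genes.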

How the data were processed

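The deposited table holds raw counts of read pairs per gene, and per the file headers the authors made it with featureCounts 1.6.2 from STAR alignments and the GENCODE M25 annotation of GRCm38. Strand was not used and reads over several genes or places were not counted, per the file headers, so reads of a gene and of its antisense partner cannot be told apart by strand. The labels name a stranded and an unstranded kit. The exon length of each gene is also deposited there and served for RPKM.

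Symbols came from GENCODE M21 on the same build and matched 99.5% of identifiers. Low counts were removed by filterByExpr. It kept genes with a CPM worth about 10 counts at median library depth in at least 4 libraries, and 15 counts in total. The genes kept were scaled with TMM and compared with edgeR 4.0.16 (robust quasi-likelihood test, group as the only term, R 4.3.3). P-values were adjusted by Benjamini-Hochberg over all 16964 genes tested, with a threshold of 0.05. SEs came from the F statistic. DESeq2 1.42.0 and other scalings, filters and subsets of libraries were alternatives, and removal of a GC trend was added after seeing the data.

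The 10 genes and the gene lists were chosen with earlier results of these data known. Named were all 10, in each pathway list the called genes and the 2 most abundant, and the 2 nearest genes in pattern. Cdh1, Epcam, Pecam1 and defining markers were named as checks, while Notum, Dkkl1, Wnt2b, Sox9 and Pdgfra were named after their values were seen. No source says whether each library is its own animal; p-values then cover only the spread from library to library, which may be technical. Floors of 3 counts cover counting error only.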

Additional observations from a re-analysis of the deposited data

Results flagged for a closer look

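Bambi in mutant library 4, at 28.3 CPM, lay far from the other mutant libraries, the nearest of which was at 23.1 CPM and the lowest at 22.2 CPM. The gap was 0.853 of the group's whole range, above Dixon's 95% critical value for 4 samples. This was 1 of 26 groups of 4 examined, and chance flags about 1 in 20.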

How the results depend on the processing

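Sfrp1 was called in all 17 alternative fits, with a log2 fold change from 1.01 to 1.22, and Wif1, Bambi and Apcdd1 kept their sign in all of them. With 1 library left out, the number of genes higher ran from 515 to 1517 and lower from 146 to 1117, of the 10 Wnt genes 1 rose each time and 0 to 3 fell, and of the other pathway genes 1 to 6 rose and 0 to 4 fell. Without controls 2 and 3, 223 genes were lower (628 higher), 0 of the 10 fell and 1 other pathway gene rose. Without controls 1 and 4, 3750 genes were higher and 3338 lower of 17418 tested. In that fit, which kept only controls 2 and 3, 4 of the 10 rose and 4 fell, and 24 other pathway genes rose and 13 fell. Without control 1 and mutant library 4 together, whose description labels carry neighbouring numbers of unstated meaning, 625 genes and 3 other pathway genes were lower. DESeq2 called 886 genes lower and 1304 higher, a share higher of 59.5% against 69.7%, and 5 other pathway genes higher and 1 lower. The cause of these shifts was not tested.

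Signs turned for Lgr4 without controls 2 and 3 (0.12), for Lef1 without control 2 (-0.056), control 3 (-0.14), mutant library 3 (-0.017) or controls 2 and 3 (-0.37), and for Tcf7 without control 1 (0.14), controls 1 and 4 (0.41) or control 1 and mutant library 4 (0.19). That of Cdh1 turned without control 1 (-0.00023) or controls 1 and 4 (-0.020). With 1 library left out Lef1 ran from -0.14 to 0.31, Tcf7 from -0.26 to 0.14 and Cdh1 from -0.00023 to 0.13. The cause was not tested. Of 272 values of single genes, 217 kept direction and call.

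With the replicate number as a block 865 genes were higher and 371 lower, the same number of Wnt genes was called (1 higher, 3 lower) and Cd44 lost its call (adjusted p = 0.0507). Deviations of same-numbered libraries correlated at 0.01, 0.13, -0.12 and 0.13, and those of differently numbered libraries at -0.14 to 0.15. With so few libraries these values cannot tell whether the replicate numbers pair the samples. The other numbers in the descriptions, which lie close together for mutant libraries 1 to 3, were not used as a term, and their part was not tested. Removing the GC trend gave 923 higher and 476 lower, and Porcn lost its call (0.0715). Depth limits Wif1, at 35 to 116 counts a library, and Lef1, at 51 to 159.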
